A study of Homo sapiens with 6 samples.

Results

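The RNA of 3 targets of the p53 transcription factor was lower in the libraries of SK-MEL-28 melanoma cells labelled HDAC8 than in those labelled EV: CDKN1A by 2.20-fold, PHLDA3 by 1.98-fold and ZMAT3 by 1.83-fold. Every other tested p53 target and DNA repair gene of the list examined moved by less than 0.58 on the log2 scale, the fold threshold used here. The 95% intervals of FAS, XPA and MGMT reached past it. The list held 56 gene symbols, chosen for function. It comprised p53 targets and regulators other than the BCL2 family, nucleotide excision repair, translesion synthesis, checkpoint, recombination, end joining and other repair genes. All 56 were found among the 60504 genes of the deposited count table, and 54 of them passed the filter on low counts and were tested.

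SK-MEL-28, a human line long established from a melanoma, was the only line analysed here, and RNA-seq was performed on 3 libraries labelled EV, from control cells given an empty plasmid, and 3 libraries labelled HDAC8, from cells given a plasmid that expresses the histone deacetylase HDAC8. According to the methods, transfected cells were kept in hygromycin, and the labels name no other treatment of either group. Neither the labels nor the methods state whether each group was a pool or 1 clone, and they number the replicates without stating that these were separate cultures, so p-values measure only the spread between these libraries. By the labels, the comparison was meant to show the effect of forced HDAC8 expression. The RNA level of HDAC8 in these libraries does not show such expression. The study probed HDAC8 protein by immunoblot in cells given either plasmid, which these libraries do not measure. Whether reads from the plasmid were counted on the gene is not stated.

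Library totals lay between 20850018 and 29822917 counts. HDAC8 itself, the introduced gene, had a mean level of 14.5 ± 2.48 CPM (normalised counts scaled to a common library size by TMM, ± SD, n = 3) under the label EV and 14.3 ± 0.881 CPM (n = 3) under the label HDAC8, with a log2 fold change of -0.024 (edgeR quasi-likelihood adjusted p = 0.924). The introduced gene therefore did not separate the groups, and every direction given here is that of the libraries labelled HDAC8 over the libraries labelled EV. Of the melanocytic markers, the summed level was 6376 to 6761 CPM in the libraries labelled EV and 7412 to 7937 CPM in those labelled HDAC8. Of 18 markers of fibroblasts, keratinocytes, leukocytes and endothelial cells, KRT1 and CD3E had 0 counts in every library and 6 markers had at most 3. The summed fibroblast list was at 38.9 to 40.9 and 51.9 to 56.1 CPM, the keratinocyte list at 8.17 to 10.1 and 6.29 to 8.83 CPM, the leukocyte list at 28.7 to 29.5 and 25.003 to 33.7 CPM, and the endothelial list at 2.79 to 3.05 and 2.76 to 3.70 CPM. The part of these lists in the results was not tested.

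The p53 protein is a transcription factor that is stabilised after DNA damage and activates genes for growth arrest, repair, metabolism and cell death, among them MDM2, whose product in turn degrades p53. Ultraviolet light, the main environmental mutagen of melanocytes, makes bulky pyrimidine lesions that are removed by nucleotide excision repair, while breaks and stalled replication forks are signalled by the kinases ATM and ATR and mended by recombination or end joining. Several repair genes, including DDB2 and XPC, are themselves known p53 targets.

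A pair of call rules were applied to all 16195 genes tested, which comprised an adjusted p below 0.05 together with a log2 fold change of 0.58 or more in either direction, the thresholds given in the methods of the study, and an adjusted p below 0.05 alone. At both thresholds, 0 of the 54 genes were higher and 3 were lower, 5.56% in all, against 4.07% of all genes tested called higher, 3.45% called lower and 7.52% called in either direction. At the adjusted p alone, 4 were higher and 7 were lower, 20.4% in all, against 11.1%, 11.7% and 22.7% of all genes tested. The levels of the groups did not overlap for 20 of the 54 genes, or 37.0%, against 38.0% of all genes tested, with 9 of the 20 higher and 11 lower in the libraries labelled HDAC8, against 18.7% and 19.4% of all genes tested. The share of these genes that was called thus lay close to that of all genes. The median log2 fold change of the 54 genes was -0.0049, against 0.0091 over all genes tested. It was 0.0029 with upper-quartile normalization, so it had no stable sign. Under both call rules the direction of each called gene was the same with TMM, upper-quartile and DESeq2 scaling. In bulk RNA, fewer cells that express a gene and less RNA per cell cannot be told apart.

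**Figure D1:**
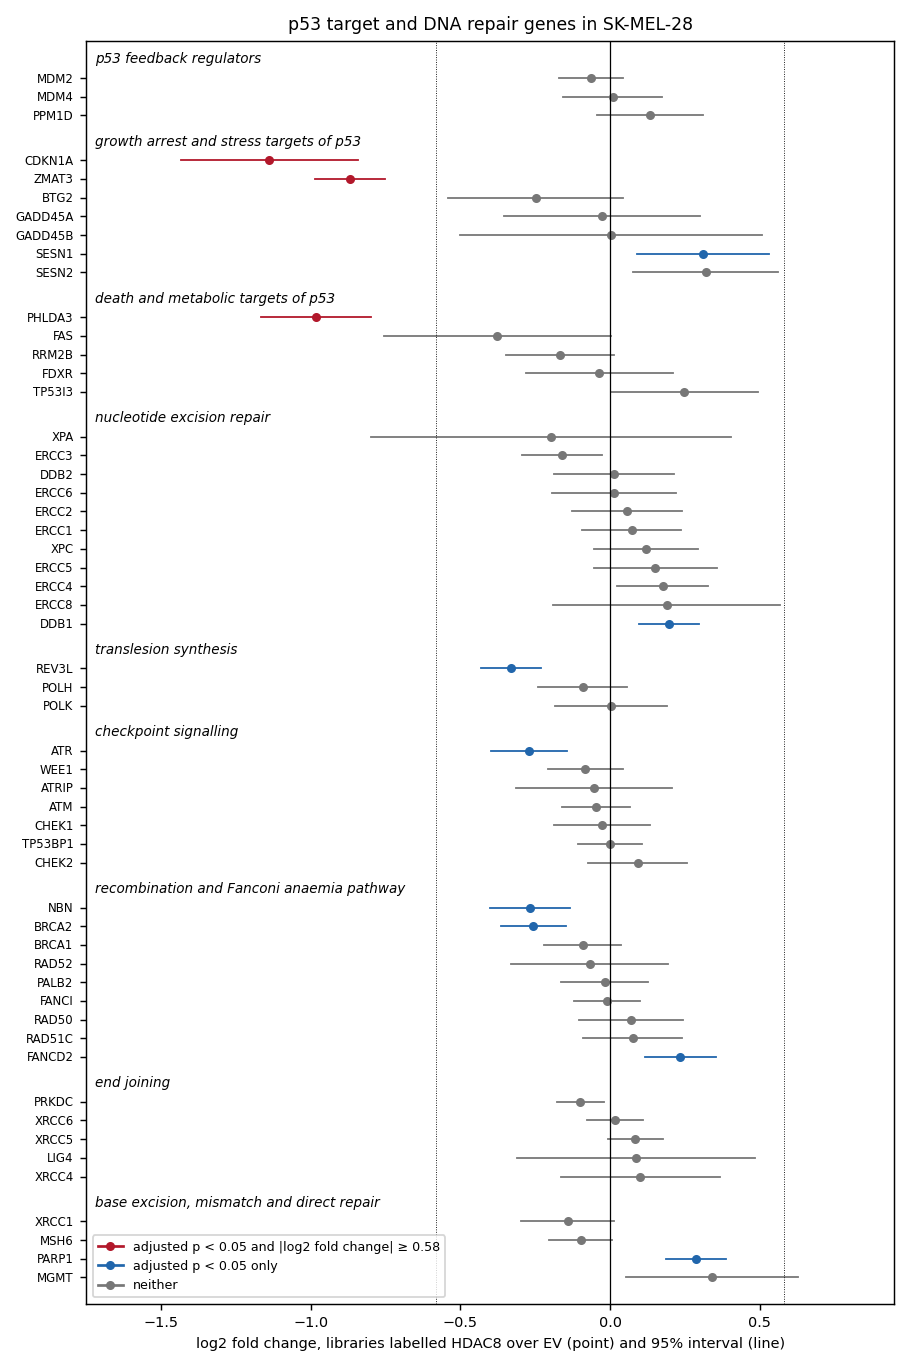
Log2 fold change of the 54 tested genes (points) with 95% intervals (lines), libraries labelled HDAC8 over EV, grouped by role. Dotted lines mark a log2 fold change of 0.58 in either direction, and the 3 red genes, CDKN1A, ZMAT3 and PHLDA3, lie beyond it with an adjusted p below 0.05.

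CDKN1A (ENSG00000124762) lies on chromosome 6 from 36676460 to 36687337 of GRCh38 and encodes p21, the inhibitor of cyclin-dependent kinases that carries much of the growth arrest function of p53. Its level was 22.3, 20.1 and 24.1 CPM in the libraries labelled EV and 12.3, 8.59 and 9.18 CPM in those labelled HDAC8. Every library labelled EV was higher than every library labelled HDAC8. The log2 fold change was -1.14 (SE 0.14, edgeR quasi-likelihood adjusted p = 8.71e-05), with a 95% interval from -1.43 to -0.84, and it was the lowest of the 54. It lay between -1.32 and -1.05 when each library was left out in turn. The 240 bases shown, chr6:36678464-36678703 on the plus strand (RefSeq, GRCh38.p14), stop 10 bases short of an annotated start site of CDKN1A. They are shown because CDKN1A changed most, and 76.7% of them are G or C.
CDKN1A: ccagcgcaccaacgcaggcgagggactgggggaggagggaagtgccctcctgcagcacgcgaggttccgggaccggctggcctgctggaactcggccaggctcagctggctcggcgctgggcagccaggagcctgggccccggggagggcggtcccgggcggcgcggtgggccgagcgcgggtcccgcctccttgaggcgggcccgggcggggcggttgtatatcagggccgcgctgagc

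PHLDA3 (ENSG00000174307) lies on chromosome 1 from 201464278 to 201469237 and encodes a pleckstrin homology domain protein that represses AKT signalling. Its level was 48.6, 51.0 and 52.1 CPM in the libraries labelled EV and 26.6, 22.3 and 27.7 CPM in those labelled HDAC8. The groups were far apart, and the lowest library labelled EV was well above the highest labelled HDAC8. The log2 fold change was -0.98 (SE 0.084, edgeR quasi-likelihood adjusted p = 5.68e-06).

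ZMAT3 (ENSG00000172667) lies on chromosome 3 from 178960121 to 179072215 and encodes a zinc finger protein that binds RNA and regulates splicing. Its level was 92.2, 92.8 and 91.9 CPM in the libraries labelled EV and 51.1, 49.2 and 51.2 CPM in those labelled HDAC8. Replicates of either group differed little, with SDs of 0.467 and 1.12 CPM. The log2 fold change was -0.87 (SE 0.053, edgeR quasi-likelihood adjusted p = 2.96e-07). CDKN1A, PHLDA3 and ZMAT3 were past both thresholds in each of the 11 alternative fits.

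Most other p53 targets and regulators did not pass either rule. Of the 17 listed, 15 were tested, and at the adjusted p alone 3 were lower, 1 was higher and 11 were not past the threshold. GADD45G, a growth arrest gene, had 0 counts in every library, which at this depth allows up to 0.101 to 0.144 CPM (3 counts, counting error only). TP53INP1, an autophagy and stress gene, had 4 to 22 counts per library and was not tested.

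MDM2, the ubiquitin ligase of p53 and a classical p53 target, was at 230.3, 227 and 223 CPM in the libraries labelled EV and at 229, 216 and 206 CPM in those labelled HDAC8. The groups overlapped, and the log2 fold change was -0.064 with a 95% interval from -0.17 to 0.043 (adjusted p = 0.402). Its relative MDM4, which binds and inhibits p53, had a log2 fold change of 0.0085, and PPM1D, the phosphatase that turns off the damage response, had one of 0.13. For these feedback regulators, 0 of 3 passed the adjusted p, against 22.7% of all genes tested.

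Among the growth arrest and stress targets, SESN1 (chromosome 6, from 108984309 to 109094846), a sestrin that restrains mTORC1 signalling, was higher in the libraries labelled HDAC8. Its level was 14.2, 18.1 and 15.9 CPM in the libraries labelled EV and 19.6, 19.99 and 20.1 CPM in those labelled HDAC8. The groups did not overlap, but the libraries labelled EV were spread widely. The log2 fold change was 0.31 (SE 0.10, edgeR quasi-likelihood adjusted p = 0.0458), and 7 of the 11 alternative fits did not pass. The adjusted p was 0.103 with DESeq2 and 0.0589 in the fit with a replicate block, and at most 0.186, without EV replicate 1.

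SESN2, another sestrin, was at 11.8, 11.1 and 13.3 CPM in the libraries labelled EV and at 16.0, 15.2 and 13.9 CPM in those labelled HDAC8. The groups did not overlap, but its log2 fold change of 0.32 did not pass (adjusted p = 0.0585). It passed in 2 of the 11 alternative fits, upper-quartile normalization and without HDAC8 replicate 3, with an adjusted p of 0.0382 at the lowest. SESN3, a sestrin from a further list of p53 targets that is named here after its values were seen, was lower, at 185, 176 and 179 CPM in the libraries labelled EV and 133, 130.003 and 127 CPM in those labelled HDAC8. Its groups did not overlap, and its log2 fold change was -0.47 (SE 0.046, edgeR quasi-likelihood adjusted p = 1.92e-05). GADD45A, which links damage signalling to growth arrest and repair, was at 9.01, 9.62 and 9.48 CPM and at 9.40, 10.8 and 7.41 CPM. Its groups overlapped, and its log2 fold change was -0.027 with a 95% interval from -0.35 to 0.30. GADD45B was at 3.02 to 4.38 CPM over all libraries with a log2 fold change of 0.0032, and BTG2, an antiproliferative gene, had one of -0.25 (adjusted p = 0.221).

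Of the death and metabolic targets, only PHLDA3 passed the adjusted p. FAS, the death receptor, was at 10.2, 6.91 and 7.53 CPM in the libraries labelled EV and at 6.76, 5.92 and 6.21 CPM in those labelled HDAC8. The groups did not overlap, but the libraries labelled EV were spread widely, and the log2 fold change of -0.38 did not pass (adjusted p = 0.150). TP53I3, an oxidoreductase, had a log2 fold change of 0.25, RRM2B, the p53-induced ribonucleotide reductase subunit, one of -0.17, and FDXR, ferredoxin reductase, one of -0.036.

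**Figure D2:**
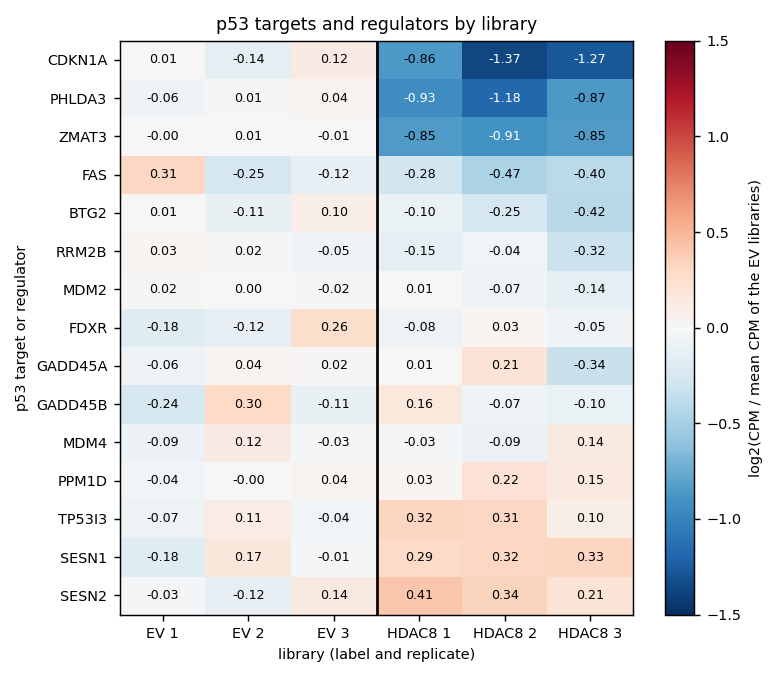
Level of each tested p53 target or regulator (rows) in each library (columns), as log2 of its CPM over the mean CPM of the EV libraries. CDKN1A, PHLDA3 and ZMAT3 lie between -1.37 and -0.85 in all 3 libraries labelled HDAC8, SESN1 between 0.29 and 0.33, and MDM2 between -0.14 and 0.01.

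A p53 response element consists of a pair of decameric half-sites, and the half-site consensus was searched in windows of 300 bases, from 250 before to 50 after each annotated start site (RefSeq, GRCh38.p14), on both strands, which read alike for this palindromic consensus. Windows were found for 47 of the 56 genes, 75 windows in all. Of these, 4 windows, or 5.33%, held a half-site, against 6.63% of 35116 windows of all genes. The 4 windows are shown because they belong to p53 targets that were not all called alike, as stretches of 30 bases with the half-site in capitals.
SESN1: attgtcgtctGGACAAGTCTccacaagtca
FAS: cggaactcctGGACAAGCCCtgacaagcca
DDB2: gtttGAACAAGCCCtGGGCATGTTTggcgg
FDXR: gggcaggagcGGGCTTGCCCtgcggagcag
These lie at chr6:109009018-109009047 (minus strand), chr10:88991299-88991328 (plus strand), chr11:47214975-47215004 (plus strand) and chr17:74872986-74873015 (minus strand). In DDB2, 2 half-sites are separated by 1 base just after the start site, and in SESN1 the half-site begins 49 bases before it. SESN1 was higher but passed in only 4 of the 11 alternative fits, whereas DDB2, FAS and FDXR did not pass the adjusted p. The windows of CDKN1A and ZMAT3 held none, and no match says only that these letters are not in these windows. For PHLDA3 no window was found, so it was not searched. A separate pattern, a pair of CATG cores separated by 6 bases of any kind, which reads alike on both strands and can overlap half-sites, was found in 1 of the 75 windows, that of ATR, or 1.33%, against 0.373% of all windows. The ATR window holds no half-site.

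The nucleotide excision repair genes had a median absolute log2 fold change of 0.15, against 0.099 over the 54 genes and 0.19 over all genes tested. Of the 11 tested, 1 was higher and 0 were lower at the adjusted p alone, or 9.09% against 22.7% of all genes tested. Of their log2 fold changes, 9 of the 11 were positive, against 51.4% of all genes tested. The signs of DDB2, ERCC1, ERCC2, ERCC6 and XPA were not the same in every alternative fit. In a further list of nucleotide excision repair genes, 13 of 29 were positive, with 0 higher and 4 lower at the adjusted p alone, or 13.8%. DDB1 (chromosome 11, from 61299451 to 61342596), the adaptor of the CUL4 ubiquitin ligase that recognises ultraviolet lesions together with DDB2, was at 235, 226 and 235 CPM in the libraries labelled EV and at 257, 264 and 276 CPM in those labelled HDAC8. Every library labelled HDAC8 was higher than every library labelled EV. Its log2 fold change was 0.20 (SE 0.046, edgeR quasi-likelihood adjusted p = 0.00839), and it passed in all 11 alternative fits.

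DDB2, the subunit that binds the lesion, was at 24.5, 24.4 and 21.4 CPM in the libraries labelled EV and at 22.9, 22.1 and 25.8 CPM in those labelled HDAC8. Its groups overlapped, and its log2 fold change was 0.013 with a 95% interval from -0.19 to 0.21 (adjusted p = 0.939). XPC, which recognises helix distortion, was at 41.0, 39.1 and 36.6 CPM and at 45.4, 43.0 and 38.3 CPM. Here too the groups overlapped, and the log2 fold change was 0.12 with a 95% interval from -0.052 to 0.29 (adjusted p = 0.323).

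The helicases ERCC2 and ERCC3 of TFIIH had log2 fold changes of 0.056 and -0.16. The 5′ endonuclease ERCC4 and its partner ERCC1 had log2 fold changes of 0.18 and 0.072, and the 3′ endonuclease ERCC5 one of 0.15. The transcription-coupled repair genes ERCC6 and ERCC8 had log2 fold changes of 0.013 and 0.19, and XPA, the scaffold of the repair complex, one of -0.20. For ERCC3 and ERCC4 the adjusted p was 0.0853 and 0.0971, and XPA, at 2.16 to 4.23 CPM, had the widest interval of the repair genes, from -0.80 to 0.40.

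Of the translesion synthesis genes, REV3L (chromosome 6, from 111299028 to 111483715), the catalytic subunit of DNA polymerase zeta, was lower. Its level was 187, 190.5 and 183 CPM in the libraries labelled EV and 146, 153 and 146 CPM in those labelled HDAC8. Again the groups were apart, and the log2 fold change was -0.33 (SE 0.045, edgeR quasi-likelihood adjusted p = 0.000259). POLH, the polymerase that copies past thymine dimers, had a log2 fold change of -0.091, and POLK, another bypass polymerase, one of 0.0028.

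Of the 7 checkpoint genes, 1 passed the adjusted p, or 14.3% against 22.7% of all genes tested. ATR (chromosome 3, from 142449007 to 142578733), the kinase of stalled replication forks, was at 71.6, 72.1 and 68.2 CPM in the libraries labelled EV and at 56.05, 59.5 and 60.2 CPM in those labelled HDAC8. No library of one group reached the other, and the log2 fold change was -0.27 (SE 0.058, edgeR quasi-likelihood adjusted p = 0.00533). Its partner ATRIP, which recruits it to single-stranded DNA, had a log2 fold change of -0.053.

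ATM, the kinase of double-strand breaks, was at 250.1, 282 and 253 CPM in the libraries labelled EV and at 252, 254 and 255 CPM in those labelled HDAC8. The groups overlapped, and the log2 fold change was -0.046 with a 95% interval from -0.16 to 0.068. CHEK1, the effector kinase of ATR, was at 37.9, 41.3 and 41.4 CPM and at 40.3, 41.8 and 36.4 CPM, with a log2 fold change of -0.027. The remaining log2 fold changes were 0.092 for CHEK2, the effector kinase of ATM, -0.083 for WEE1, the kinase that holds CDK1 inactive, and 0.0013 for TP53BP1, the break-binding protein 53BP1.

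Of the 9 recombination and Fanconi anaemia pathway genes, 2 were lower and 1 was higher at the adjusted p alone. That was 33.3%, against 22.7% of all genes tested. BRCA2 (chromosome 13, from 32315086 to 32400268), which loads recombinase filaments on single-stranded DNA, was at 129, 139 and 132 CPM in the libraries labelled EV and at 114, 111 and 109 CPM in those labelled HDAC8. All libraries labelled EV were higher, and the log2 fold change was -0.26 (SE 0.050, edgeR quasi-likelihood adjusted p = 0.00289). NBN, the regulatory subunit of the break-sensing MRN complex, was at 93.1, 92.3 and 91.8 CPM and at 80.2, 79.6 and 70.3 CPM. Its libraries labelled HDAC8 were all lower, with 1 of them lower than the other two, and the log2 fold change was -0.27 (SE 0.061, edgeR quasi-likelihood adjusted p = 0.00780).

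FANCD2 (chromosome 3, from 10026370 to 10101932), which is monoubiquitinated at crosslinks, was higher, at 139, 129 and 125 CPM in the libraries labelled EV and at 149, 158 and 157 CPM in those labelled HDAC8. The groups did not overlap, and the log2 fold change was 0.23 (SE 0.054, edgeR quasi-likelihood adjusted p = 0.00827), but the adjusted p was 0.0589 without EV replicate 3. Its partner FANCI had a log2 fold change of -0.011. BRCA1, which directs break resection, was at 124, 135 and 126 CPM and at 128, 121 and 113 CPM. Those groups overlapped, and the log2 fold change was -0.091 with a 95% interval from -0.22 to 0.037. PALB2, RAD51C, RAD52 and RAD50 had log2 fold changes between -0.068 and 0.076.

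None of the 5 end joining genes passed the adjusted p, against 22.7% of all genes tested. PRKDC, the catalytic subunit of DNA-PK, was at 1276, 1272 and 1304 CPM in the libraries labelled EV and at 1191, 1221 and 1185 CPM in those labelled HDAC8. The groups did not overlap, but the log2 fold change was -0.099 (adjusted p = 0.0757), and the adjusted p was 0.0191 with DESeq2 and 0.0368 without HDAC8 replicate 3. The Ku subunits XRCC5 and XRCC6 had log2 fold changes of 0.084 and 0.016, of which that of XRCC5 passed in 1 of the 11 alternative fits (adjusted p = 0.0344 without HDAC8 replicate 3), and XRCC4 and LIG4, which form the ligation complex, 0.10 and 0.087.

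PARP1 (chromosome 1, from 226360210 to 226408154), the sensor of single-strand breaks, was higher in the libraries labelled HDAC8. Its level was 380, 361 and 371 CPM in the libraries labelled EV and 462, 465 and 429 CPM in those labelled HDAC8. All libraries labelled HDAC8 were higher, and the log2 fold change was 0.29 (SE 0.046, edgeR quasi-likelihood adjusted p = 0.000850). MGMT, which removes alkyl groups from guanine, was at 8.54, 8.81 and 7.49 CPM and at 10.6, 11.4 and 9.53 CPM. Its groups did not overlap either, but the log2 fold change of 0.34, the highest of the 54, did not pass (adjusted p = 0.0874). XRCC1, the scaffold of single-strand break repair, and MSH6, of mismatch recognition, had log2 fold changes of -0.14 and -0.099.

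**Figure D3:**
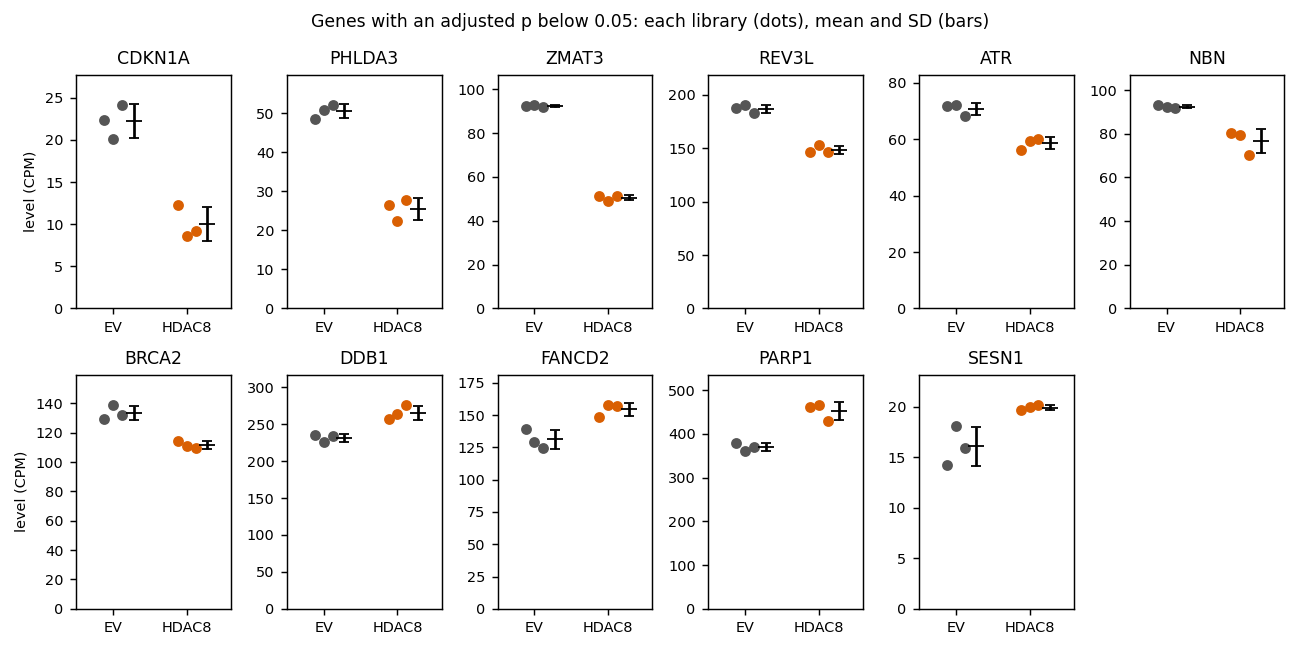
Level in CPM of the 11 genes with an adjusted p below 0.05 in each library (dots), with the mean and SD of each group (bars, n = 3), on axes that start at 0. The groups do not overlap for any of the 11, and CDKN1A, PHLDA3 and ZMAT3 are furthest apart in ratio.

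The 95% interval of the log2 fold change lay between -0.58 and 0.58 for 48 of the 54 genes. The exceptions were CDKN1A, PHLDA3 and ZMAT3, which passed, and FAS, XPA and MGMT, whose intervals reached past it. Per kilobase of annotated exon, the end joining genes XRCC6, XRCC5 and PRKDC ranked highest. Their levels were 221, 114 and 44.2 CPM per kilobase in the libraries labelled EV. They were followed by MDM2 at 27.3 and PARP1 at 20.1 CPM per kilobase. CDKN1A was at 7.41 CPM per kilobase in the libraries labelled EV and 3.34 in those labelled HDAC8, while ERCC8 was at 0.207 and FAS at 0.280 in the libraries labelled EV. The exon length is the union of all annotated transcripts, such as 29313 bases for FAS and 3244 for XRCC6. It may exceed what these cells use, so levels of different genes can be compared only roughly.

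Neighbouring genes on the same chromosome were examined after the values had been seen, by the median log2 fold change of up to 25 nearest genes of at least 10 CPM on either side. For 9 of the 54 genes this median was below -0.1, and they included 4 of the 7 genes called lower and 0 of the 4 called higher at the adjusted p alone. Around BRCA2, the median of 50 neighbours was -0.24 with quartiles of -0.32 and -0.047, so that its own log2 fold change of -0.26 lay between the quartiles. Around NBN it was -0.15 with quartiles of -0.31 and -0.040, and the log2 fold change of NBN also lay between them. Around ATR the median was -0.15 with quartiles of -0.25 and -0.038, and ATR, at -0.27, was just below the lower quartile.

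ZMAT3 lay 0.68 below its neighbours, whose median was -0.19. CDKN1A and PHLDA3 were the lowest of their windows, 1.07 and 1.06 below neighbours with medians of -0.067 and 0.073, and REV3L was 0.36 below neighbours with a median of 0.025. ERCC5 and LIG4, on chromosome 13 like BRCA2, had log2 fold changes of 0.15 and 0.087 among neighbours with medians of -0.29 and -0.31. The part of such regional shifts in the levels of BRCA2, NBN, ATR and ZMAT3 was not tested.

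**Figure D4:**
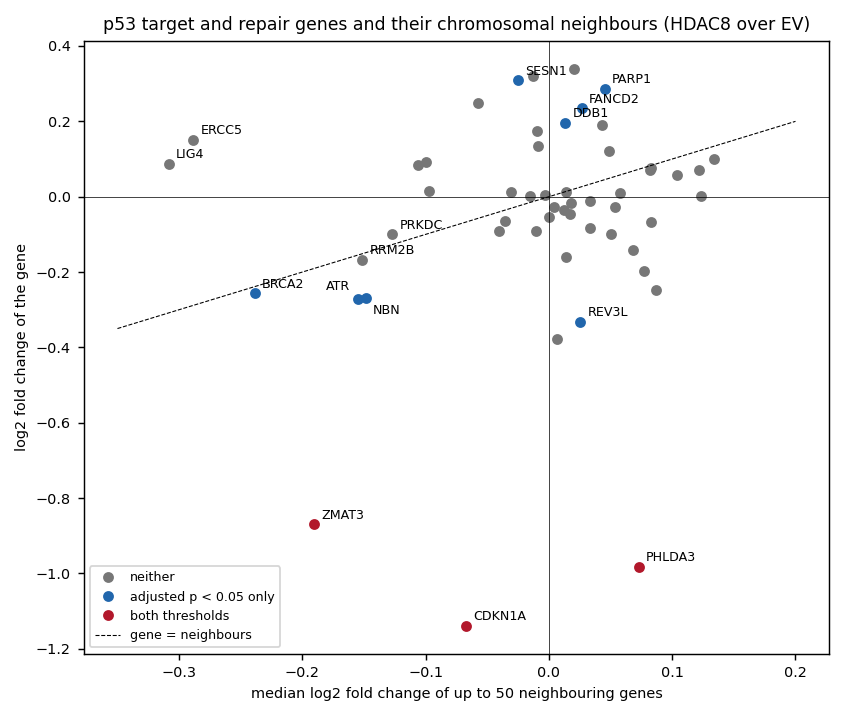
Log2 fold change of each tested gene (vertical axis) against the median log2 fold change of up to 50 neighbouring genes of at least 10 CPM (horizontal axis). The dashed line marks equality: BRCA2 lies near it, at -0.26 and -0.24, and CDKN1A, PHLDA3 and ZMAT3 lie far below it.

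A further list of p53 targets gave 4 higher and 2 lower genes at the adjusted p alone and 15 that did not pass, of 26 listed and 21 tested. The share called was 28.6%, against 22.7% of all genes tested. At both thresholds, which 7.52% of all genes tested passed in either direction, 2 of the 21 were higher and 0 lower. These were CCNG1, a cyclin G gene, at 139, 125 and 125 CPM in the libraries labelled EV and 202, 200.4 and 184 CPM in those labelled HDAC8, and KITLG, the ligand of the KIT receptor, at 7.43, 7.82 and 7.16 CPM and 10.9, 12.6 and 11.5 CPM. In neither gene did the groups overlap, and the log2 fold changes were 0.60 and 0.64 (edgeR quasi-likelihood adjusted p = 1.83e-05 and 0.00270). The median log2 fold change of this list was -0.024.

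Genes of the cell cycle differed between the groups in both directions. Of 30 proliferation genes, all tested, 12 were higher and 12 lower at the adjusted p alone, or 24 of 30 against 22.7% of all genes tested. At both thresholds, which 7.52% of all genes tested passed in either direction, 0 were higher and 2 lower. The latter were CCNE2, at 28.9, 28.96 and 27.2 CPM in the libraries labelled EV and 15.5, 14.2 and 11.3 CPM in those labelled HDAC8, and CCNE1, at 9.93, 10.6 and 9.56 CPM and 6.01, 5.63 and 6.25 CPM, the cyclins E that activate CDK2 at the start of S phase. The log2 fold changes were -1.05 and -0.75 (edgeR quasi-likelihood adjusted p = 3.46e-05 and 0.00175). The other 10 lower genes, named after their values were seen, were PCNA, MCM2 to MCM7, RRM2, E2F1 and CDC6, and the 12 higher genes were CDK1, CDK2, FOXM1, CCNA2, CCNB1, CCNB2, BUB1, BUB1B, CDC20, AURKA, PLK1 and TOP2A. The part of the cell cycle in the levels of the repair genes was not tested.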

How the data were processed

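RNA-seq libraries of SK-MEL-28 cells (3 labelled EV, 3 labelled HDAC8) were grouped by their sample titles. Values per Ensembl gene are estimated counts, which the authors deposited as RSEM gave them and did not normalize, made by Trimmomatic, STAR alignment to the transcriptome and RSEM (GRCh38 per the labels; the annotation is not given in the sources used here). RSEM divides reads that match several genes, so values are not all whole: 20 of the 56 genes had such values, among them REV3L, ATR, SESN1 and FANCD2. The labels name a strand-specific, ribosomal-RNA-depleted preparation and the methods another kit. Whether counting used strand is not stated. A deposited table of the authors' own fold changes was not used.

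Counts were rounded, and a two-sided quasi-likelihood test (edgeR 4.0.16 under R 4.3.3) was run with TMM factors, after filterByExpr and with no block. Adjusted p-values are Benjamini-Hochberg values over all 16195 genes tested. The study's own tool, DESeq2 1.42.0, was an alternative. Others were upper-quartile normalization, no filter on low counts, at least 10 counts in every library, the replicate number as a block, each library left out, and a log2 fold change of at least 1. Standard errors are the log2 fold change over the square root of F. The fit was tested on simulated data. A floor of 3 counts was 0.101 to 0.144 CPM; floors cover counting error only. Gene positions and exon lengths are from GENCODE 44.

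Values in every library are given for genes past both thresholds, the 8 highest and 8 lowest log2 fold changes past the adjusted p, and CDKN1A, MDM2, GADD45A, XPC, DDB2, ATM, CHEK1, BRCA1, PRKDC and MGMT. FAS and SESN2 were added after their values were seen. The genes and lists were chosen with earlier results of these data known.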

Additional observations from a re-analysis of the deposited data

How the results depend on the processing

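At both thresholds, 3 genes were lower and 0 higher under DESeq2, upper-quartile normalization, both filters and the replicate block, and in the fits that left out 1 library (0 to 0 higher, 3 to 3 lower). With a log2 fold change of at least 1, 1 was lower. At the adjusted p alone, 2 to 5 were higher and 7 to 8 lower over the fits that left out 1 library, the 2 without EV replicate 3. The median log2 fold change of the listed genes tested lay between -0.043 (without HDAC8 replicate 1) and 0.0095 (without EV replicate 2) when 1 library was left out. Such fits tested 54 or 55 of the listed genes. The sign of genes with no call depended on single libraries: over these fits the log2 fold change was -0.16 to 0.080 for HDAC8, -0.16 to 0.097 for GADD45A, -0.063 to 0.049 for DDB2, -0.080 to 0.0095 for ATM and -0.075 to 0.019 for CHEK1. The causes were not tested. Deviations of same-numbered libraries from their group means were not shared (correlations across genes of -0.060, -0.12 and -0.053), so the number does not pair them. With it as a block, 3 genes were higher and 7 lower at the adjusted p alone, and in none of the 3 pairs did a library correlate best with its own number. The 95% intervals of XPA, FAS and MGMT reached past the fold threshold, and the part of depth in this was not tested.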

Other observations

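Other repair genes were examined in lists that hold none of the genes above. Their median absolute log2 fold change was 0.11 for nucleotide excision repair genes and 0.14 for checkpoint and recombination genes. It was 0.13 for end joining, base excision, mismatch and bypass genes, against 0.19 over all genes tested. Whether these medians differ from that of all genes was not tested. The signed medians below show only how far the directions balanced. Of 29 further nucleotide excision repair genes, 0 were higher and 4 lower at the adjusted p alone, with a median log2 fold change of -0.014. Of 41 further checkpoint and recombination genes, 2 were higher and 5 lower, with a median of -0.016, and of 31 further end joining, base excision, mismatch and bypass genes, 1 was higher and 5 were lower, with a median of -0.048. The shares called at the adjusted p alone were 13.8%, 17.1% and 19.4% in that order, against 22.7% of all genes tested. At both thresholds 0 genes of these lists were called, against 7.52% of all genes tested. The lowest log2 fold change of these lists, named after its value was seen, was that of UNG, the uracil glycosylase that starts base excision, at -0.54 (edgeR quasi-likelihood adjusted p = 0.000135).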
